A study of Homo sapiens with 6 samples.

Results

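Antisense long non-coding RNAs are transcribed from the strand opposite to a neighbouring gene, and the symbols of many end in -AS1 after the name of that gene. Some start close to the promoter of the partner and run away from it, and others cross its exons or introns. They are known as regulators of the partner's transcription, splicing or stability in some cases and as host transcripts of small RNAs in others, and many are spliced, polyadenylated and held in the nucleus. The 313 RNAs described here were chosen by their symbol and by their level, as the rows ending in -AS1 with at least 30 counts in each of the 6 libraries. They were 313 of 1646 rows with such a symbol and of 61806 genes in the count table, and 1037 of the 1646 had a count in at least one library. The counts that chose them are a description only.

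The libraries came from MV4-11, a human acute myeloid leukemia (AML) line of monocytic type that carries an internal tandem duplication of FLT3. shNC stands for 3 libraries of cells given a control hairpin, and shATGL for 3 libraries of cells labelled as given a hairpin against ATGL (the lipase encoded by PNPLA2). Both arms were made with lentiviral vectors, and which hairpin sequence was used for these libraries is not given in the sources used here. CPM is the count of a gene per 1000000 scaled counts of its library, and a log2 fold change compares shATGL with shNC. The comparison asks which antisense RNAs differed in level between the 2 arms, and whether each moved with the gene in its name.

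The files held 59674064 to 74808280 counts per library, and the antisense RNAs together took 0.214 to 0.249% of them. PNPLA2 had 101, 97.0 and 107 CPM in shNC 1 to 3 and 102, 98.1 and 104 CPM in the libraries labelled shATGL 1 to 3. The groups overlapped and the log2 fold change was -0.01 ± 0.06 (SE, 95% interval -0.15 to 0.14), so every direction below belongs to the library labels and not to a measured fall of the targeted transcript. Of the 13 markers taken for this line, all but CD14 (0 to 0.286 CPM) lay above 2 CPM in every library, and markers of T cells, red cells and epithelium were at 0 or at most 4 counts. The library labelled shATGL 3 stood apart from shATGL 1 and 2 for many genes, and results that rest on it are given with and without it. The nuclear RNAs MALAT1 and NEAT1 had a like order. MALAT1 had 180 and 189 CPM in shATGL 1 and 2, 98.3 CPM in shATGL 3, and 69.9 to 100 CPM in shNC. NEAT1 had 162, 154 and 96.8 CPM in shATGL against 84.0 to 105 CPM in shNC. Their part in the results below was not tested.

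By the annotation (GENCODE 29, on GRCh38), all 311 RNAs with a partner in the annotation lay on the strand opposite to it, and PGM5P3-AS1 and TRG-AS1 had no partner there. Exons of 236 overlapped exons of the partner, 44 lay within or across its introns, 27 started within 1 kb of its start and pointed away from it without shared exons, and LYRM4-AS1, PRDX6-AS1, SRGAP2-AS1 and FOXD2-AS1 lay apart. The exons of 258 of the 313 shared at least 1 base with some other gene. The strand setting of the counting is not given in the sources used here, so reads from an antisense RNA and from the gene across it cannot be told apart over those bases. The annotation called 237 of the 313 antisense, 34 processed transcripts, 32 lincRNAs and 3 bidirectional promoter RNAs. KCNJ5-AS1, KRT10-AS1 and DOCK8-AS1 stood there as protein-coding genes, which goes against the name of the class for these 3. SVIL-AS1, EMC3-AS1, TP73-AS1 and SRP54-AS1 stood there as transcribed pseudogenes.

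RefSeq (GRCh38.p14) gave a start region for 240 of the 313 RNAs, taken as 250 bases before to 50 bases from the start. RTCA-AS1, ZNF674-AS1, MNX1-AS1 and CCDC18-AS1 are shown because they start head to head with a coding gene and stood toward the ends of the comparison. The capitals mark the first 50 bases of the antisense RNA, lower case marks the bases before its start, and each stretch begins just past the exon of the coding gene across it (DR1 for CCDC18-AS1).
RTCA-AS1, chr1:100266125-100266206, minus strand: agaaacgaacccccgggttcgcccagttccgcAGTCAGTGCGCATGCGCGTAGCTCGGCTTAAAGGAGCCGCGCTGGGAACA
ZNF674-AS1, chrX:46545458-46545539, plus strand: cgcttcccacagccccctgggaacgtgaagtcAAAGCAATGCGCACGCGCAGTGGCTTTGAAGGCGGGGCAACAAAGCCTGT
MNX1-AS1, chr7:157010664-157010906, plus strand: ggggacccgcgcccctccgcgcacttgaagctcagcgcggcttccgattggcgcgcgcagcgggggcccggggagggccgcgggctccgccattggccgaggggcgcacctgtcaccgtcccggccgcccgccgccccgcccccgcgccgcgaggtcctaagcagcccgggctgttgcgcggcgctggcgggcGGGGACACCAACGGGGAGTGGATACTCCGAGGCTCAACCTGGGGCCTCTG
CCDC18-AS1, chr1:93345762-93345887, minus strand: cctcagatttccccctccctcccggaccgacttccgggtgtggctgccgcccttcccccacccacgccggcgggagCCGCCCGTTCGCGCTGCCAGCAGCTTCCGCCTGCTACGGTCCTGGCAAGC
In RTCA-AS1 and ZNF674-AS1 only 32 bases separated the antisense start from the exon of the partner. From the 8th base of RTCA-AS1 the letters are GCGCATGCGC and from the 9th base of ZNF674-AS1 they are GCGCACGCGC. Both match GCGC, any base, then TGCGC (searched on both strands), which 14.6% of the 240 antisense start regions and 6.29% of 27305 RefSeq start regions of the same length held. GGGCGG stood in 60.8% of the antisense regions against 44.6% of all, CCAAT in 32.5% against 35.7%, and TATAAA in 5.83% against 12.0%, each searched on both strands. The antisense start regions had a median G and C content of 64.8% and a median of 24 CG steps, against 58.3% and 14 over all. These shares describe letters only.

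No antisense RNA passed the main test, and the result depended on the test used. In bulk RNA a lower level per cell and fewer cells with the RNA cannot be told apart. With edgeR's quasi-likelihood test, an adjusted p under 0.05 and at least a 2-fold change, 0 of 313 were called, where 1 of 19149 genes was called in all (0.00522%), a gene without a symbol in the name table. The smallest adjusted p among the antisense RNAs was 0.392. DESeq2, the tool named in the paper, called 2 (background 0.151%) and limma voom with quality weights called 2 (background 1.39%). In both cases they were TAPT1-AS1 and ASMTL-AS1, both higher in shATGL. At an adjusted p under 0.05 without the fold limit, DESeq2 gave 8 antisense RNAs, all 8 higher, where 89 of 15845 genes passed. Under the same limit voom gave 27, of which 24 were higher, where 2076 of 19149 genes passed. At an unadjusted p under 0.05, 29 of the 313 were higher in shATGL, or 9.27%, where 5.77% of all genes were, and 5 were lower, or 1.60%, where 5.94% of all genes were. The 5 were ATP6V0E2-AS1, MNX1-AS1, ZNF674-AS1, EXOC3-AS1 and PXN-AS1.

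Levels separated the arms in a similar proportion. In 42 RNAs (13.4%) every library labelled shATGL lay above every shNC library, where 7.93% of all genes did, and in 15 (4.79%) every one lay below, where 9.38% of all genes did. The median log2 fold change was 0.03 over the 313 antisense RNAs, 0.02 over 300 partner genes and 0.01 over all genes tested, and 171 of the 313 stood above 0. So the middle of the distribution lay beside that of all genes, and its upper side held more members than its lower side. This was not particular to the antisense RNAs. Of the 300 partner genes, 36 (12%) were separated upward and 23 (7.67%) downward. Of the 313, 193 lay within 1.2-fold of no change (61.7%, against 65.7% of all genes), 26 were over 1.5-fold higher and 6 were over 1.5-fold lower.

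**Figure D1:**
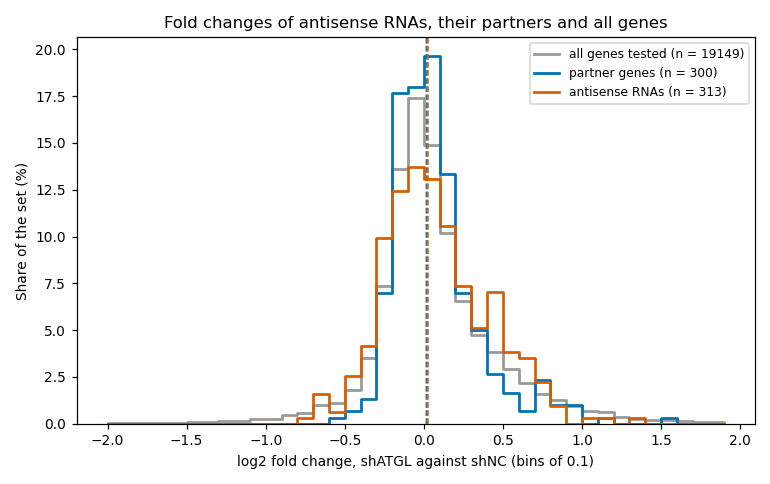
The horizontal axis gives the log2 fold change of shATGL against shNC in bins of 0.1, the vertical axis the percent of each set, and dashed lines mark the medians (values beyond 2 are not drawn). The antisense RNAs and all genes share a centre near 0, and the antisense line lies above that of all genes between 0.4 and 0.7.

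The highest fold change belonged to TAPT1-AS1 (chr4:16226685-16320140, plus strand, 5 exons), named for TAPT1, a membrane protein known for its part in skeletal patterning. Its levels were 1.01, 0.672 and 0.705 CPM in shNC 1 to 3 and 2.05, 2.40 and 1.66 CPM in shATGL 1 to 3. All 3 shATGL libraries lay above all 3 shNC libraries, from means of 0.795 ± 0.185 and 2.04 ± 0.370 CPM (SD, n = 3 each), a 2.56-fold difference (log2 1.36 ± 0.25, SE, 95% interval 0.77 to 1.95). TAPT1 itself had 29.9, 29.4 and 25.8 CPM in shNC and 29.9, 29.6 and 28.8 CPM in shATGL (log2 0.05 ± 0.09), and its groups overlapped. The lowest library of TAPT1-AS1 held 40 counts, so this RNA stood close to the lower limit of the choice.

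ASMTL-AS1 (chrX:1401769-1414028, plus strand, 4 exons) shares 225 exonic bases with ASMTL, a methyltransferase-like gene of the pseudoautosomal region, whose sequence is repeated on the other sex chromosome. How the counting treated the copies is not given in the sources used here, so its level is uncertain. It had 5.34, 5.49 and 4.33 CPM in shNC and 13.0, 12.9 and 7.69 CPM in shATGL. The shATGL libraries were again all higher, with shATGL 3 between the shNC libraries and the other two (log2 1.15 ± 0.22, 95% interval 0.64 to 1.66). ASMTL had 19.4 to 23.2 CPM in shNC and 17.3 to 20.2 CPM in shATGL, a log2 fold change of -0.12 ± 0.11 and so of the other sign.

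SLC9A3-AS1 (chr5:473236-480884, plus strand) was the most abundant RNA among those with separated groups and is named for the sodium/hydrogen exchanger NHE3. It had 38.1, 37.9 and 32.6 CPM in shNC and 69.1, 66.0 and 44.8 CPM in shATGL, or 36.2 ± 3.13 against 60.0 ± 13.2 CPM (SD, n = 3 each; log2 0.73 ± 0.16). SLC9A3 was also higher in every shATGL library, at 22.5, 25.0 and 21.6 CPM against 18.7, 19.4 and 18.6 CPM (log2 0.29 ± 0.09). Per kb of exon the antisense RNA stood above its partner, at 11.2 CPM per kb against 3.72.

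CCDC18-AS1 (chr1:93262186-93346025, minus strand, 20 exons) runs from the start of DR1, a repressor of transcription by RNA polymerase II, across CCDC18, a coiled-coil protein. It had 7.00, 7.63 and 7.95 CPM in shNC and 14.9, 14.2 and 9.14 CPM in shATGL (log2 0.76 ± 0.19). CCDC18 had 17.1, 17.6 and 17.7 CPM in shNC and 36.3, 36.2 and 17.9 CPM in shATGL (log2 0.79 ± 0.25). Both transcripts were near their shNC level in shATGL 3 and clearly higher in shATGL 1 and 2.

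GAS6-AS1 (chr13:113815630-113845744, plus strand) is named for GAS6, the ligand of the TYRO3, AXL and MERTK receptors. It had 7.34, 6.67 and 5.47 CPM in shNC and 10.1, 13.8 and 8.50 CPM in shATGL (log2 0.73 ± 0.20), and all shATGL values lay above the shNC values. GAS6 had 95.3, 94.3 and 99.6 CPM in shNC and 96.3, 92.0 and 96.5 CPM in shATGL (log2 -0.02 ± 0.06). RNAs of low abundance completed the 8 highest. RNF213-AS1, whose partner encodes a ubiquitin ligase, had 1.08, 0.723 and 1.02 CPM in shNC and 1.61, 1.92 and 1.21 CPM in shATGL (log2 0.75 ± 0.27), and RNF213 was higher as well (log2 0.27 ± 0.06). UCKL1-AS1 had 1.37, 2.07 and 1.51 and then 3.20, 3.13 and 2.08 CPM (log2 0.77 ± 0.25), beside a uridine-cytidine kinase-like partner at log2 0.05 ± 0.09. SELENOO-AS1 had 0.745, 0.538 and 0.959 and then 1.66, 1.01 and 1.33 CPM (log2 0.83 ± 0.31), beside the selenoprotein gene SELENOO at log2 0.26 ± 0.07.

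On the lower side, ATP6V0E2-AS1 (chr7:149867697-149880610, minus strand), across a subunit gene of the vacuolar proton pump, had 2.03, 2.12 and 2.40 CPM in shNC and 1.13, 1.51 and 1.41 CPM in shATGL. Every shATGL library lay below every shNC library (log2 -0.69 ± 0.20, 95% interval -1.14 to -0.23), while ATP6V0E2 had a log2 fold change of -0.01 ± 0.08. MNX1-AS1, divergent from the homeobox gene MNX1, had 1.21, 1.21 and 0.973 CPM in shNC and 0.729, 0.640 and 0.815 CPM in shATGL (log2 -0.64 ± 0.24). MNX1 had 12.5, 12.9 and 14.2 and then 10.3, 10.5 and 12.9 CPM (log2 -0.23 ± 0.12), with overlapping groups. ZNF674-AS1, at the shared start with a zinc finger gene, had 3.92, 2.76 and 3.31 CPM in shNC and 2.58, 2.52 and 2.15 CPM in shATGL (log2 -0.46 ± 0.19). These 3 lay below shNC in all shATGL libraries, shATGL 3 included.

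ZEB1-AS1, named for a repressor of epithelial genes, had 1.09, 1.24 and 0.945 CPM in shNC and 0.823, 0.862 and 0.499 CPM in shATGL (log2 -0.58 ± 0.29). Its lowest library, shATGL 3, held exactly 30 counts. ZEB1 had 3.52, 2.57 and 1.76 CPM in shNC and 5.45, 6.35 and 1.55 CPM in shATGL (log2 0.77 ± 0.49), so antisense RNA and partner had fold changes of opposite sign with wide errors. SLC38A4-AS1 (log2 -0.52 ± 0.24), EXOC3-AS1 (log2 -0.39 ± 0.14), RALY-AS1 (log2 -0.33 ± 0.17) and ST20-AS1 (log2 -0.29 ± 0.15) made up the 8 lowest with separated groups. Among their partners, SLC38A4, an amino acid transporter, was at 0 to 0.133 CPM, EXOC3, a subunit of the exocyst, was at log2 0.05 ± 0.05, and RALY, an RNA-binding protein, was at log2 -0.19 ± 0.08.

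**Figure D2:**
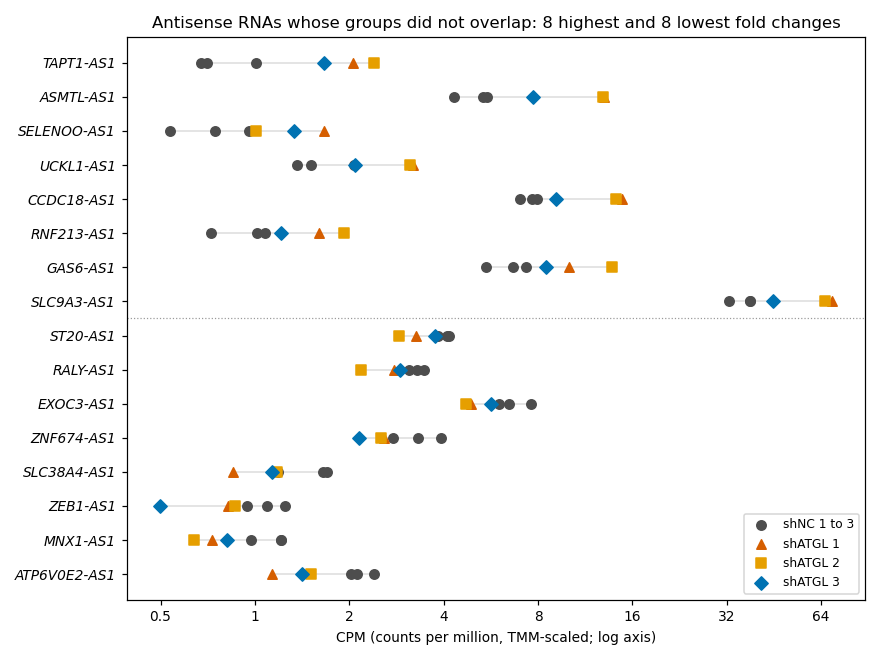
Each row is one antisense RNA and each point one library, on a log axis of CPM, with dark circles for shNC 1 to 3 and coloured symbols for shATGL 1, 2 and 3. In the upper 8 rows all coloured points lie to the right of the dark ones and the blue diamond of shATGL 3 is the nearest to them in 7 rows, the exception being SELENOO-AS1, and in the lower 8 rows all coloured points lie to the left.

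The number of calls depended on the library labelled shATGL 3. The 29 RNAs at an unadjusted p under 0.05 on the higher side had a median log2 level against the shNC mean of 0.69 in shATGL 1, 0.65 in shATGL 2 and 0.39 in shATGL 3. Over all 313, shATGL 3 lay below both other shATGL libraries in 128 (40.9%), beside 39.9% of all genes. Without shATGL 3, 24 RNAs were higher at an adjusted p under 0.05 in edgeR (7.67% of 313, where 7.94% of all genes were), and only MIF-AS1 was lower (0.319%, where 6.07% of all genes were; log2 -0.34 ± 0.07, adjusted p = 0.0226). Read against that background, the share on the higher side was near that of all genes and the share on the lower side was below it. Then 3 passed the 2-fold limit as well (0.958%, where 1.6% of all genes did): TAPT1-AS1 (log2 1.48 ± 0.26, adjusted p = 0.0135), ASMTL-AS1 (log2 1.36 ± 0.14, adjusted p = 0.00150) and RTCA-AS1 (log2 1.14 ± 0.30, adjusted p = 0.0430).

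RTCA-AS1, whose start region is shown above, is divergent from RTCA, an RNA 3′-phosphate cyclase. It had 1.63, 2.72 and 1.34 CPM in shNC and 4.63, 3.73 and 0.649 CPM in shATGL, so that shATGL 1 and 2 were the highest of the 6 libraries and shATGL 3 the lowest. With all libraries its log2 fold change was 0.67 ± 0.62 and the groups overlapped. THAP9-AS1 had 34.1, 39.9 and 31.4 CPM in shNC and 56.5, 54.8 and 28.7 CPM in shATGL, with the same order. PSMA3-AS1, named for a proteasome subunit, had 22.0, 25.5 and 20.5 CPM in shNC and 37.6, 36.2 and 21.8 CPM in shATGL, with shATGL 3 inside the shNC range, while PSMA3 was at log2 -0.14 ± 0.08. ZFHX2-AS1 had the smallest unadjusted p of the 313 (0.000400) and little spread between shATGL libraries. It shares 1577 exonic bases with THTPA on its own strand, and its levels were 5.02, 4.92 and 4.58 CPM in shNC and 8.09, 7.60 and 7.60 CPM in shATGL (log2 0.68 ± 0.11). It was chosen for mention after its values were seen, as were RTCA-AS1 and THAP9-AS1.

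The 29 RNAs on the higher side were set beside the class by features of the annotation, which the count limit did not use, and by mean level. The level is not separate from the choice, which used counts, and reaching a low unadjusted p depends on it as well. The exons of 25 of the 29 overlapped those of the partner (86.2%, against 75.4% of the 313), and all 29 shared exonic bases with another gene (82.4% of the 313 did). Of the 55 antisense RNAs that shared no exonic base 0 were higher and 2 lower at an unadjusted p under 0.05, where 5.77% of all genes were higher and 5.94% lower. Among those 55, the arms were separated upward in 1 (LYRM4-AS1) and downward in 7, against 41 and 8 of the 258 that shared bases. Of all genes, 7.93% were separated upward and 9.38% downward. The median log2 fold change was -0.01 in the 55 and 0.04 in the 258. The 29 had a median exonic length of 3602 bases and a median level of 7.14 CPM, against 2578 bases and 2.48 CPM in the 279 that passed in neither direction. The 5 on the lower side had a median exonic length of 2078 bases.

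Fold changes differed with exonic length across the class. Ranked by exonic length, the longest 104 had a median log2 fold change of 0.13, the middle 105 -0.02 and the shortest 104 0.00. Spearman's rho between fold change and exonic length was 0.20 across the 313 RNAs and 0.19 across all genes, as a description across genes that share the same 6 libraries. With length and GC trends taken out of the fit, 31 RNAs were higher (4.7% of all genes were) and 8 lower (10.9% of all genes were) at an unadjusted p under 0.05. The split of all genes turned towards lower under this fit, and that of the antisense RNAs stayed on the higher side. The median log2 fold change was -0.08 for the 27 divergent RNAs, 0.04 for the 236 with overlapping exons and 0.06 for the 44 in introns.

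**Figure D3:**
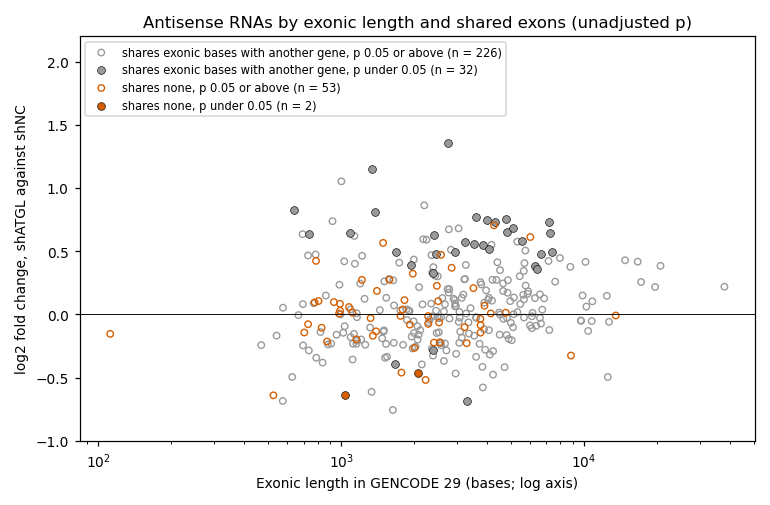
Each point is one antisense RNA, with exonic length in bases on a log axis and log2 fold change of shATGL against shNC on the vertical axis. Filled points have an unadjusted p under 0.05, and all filled points above 0 are grey, the colour of RNAs that share exonic bases with another gene.

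Of the 8 antisense RNAs of highest mean CPM, SLC9A3-AS1 had separated groups and is described above, and the groups of the other 7 overlapped. Among the 105 RNAs of highest mean CPM, 19 (18.1%) were higher at an unadjusted p under 0.05 and the median log2 fold change was 0.08. In the middle 103 these were 6 (5.83%) and 0.01, and in the 105 of lowest mean CPM 4 (3.81%) and 0.01. Of all genes, 5.77% were higher, and genes of like level were not set beside these RNAs. FGD5-AS1, whose partner is an exchange factor of endothelial cells, had 140.4, 139.6 and 132 CPM in shNC and 122, 130.4 and 160.1 CPM in shATGL (log2 0.00 ± 0.10, 95% interval -0.24 to 0.24). FGD5 itself had no count in 5 of the libraries. OIP5-AS1, also known as Cyrano and known for its site for the microRNA miR-7, had 137, 143 and 128 CPM in shNC and 132, 137 and 121 CPM in shATGL (log2 -0.06 ± 0.07). TMPO-AS1 was at log2 -0.15 ± 0.08, EPB41L4A-AS1 at -0.06 ± 0.07, CCDC144NL-AS1 at 0.06 ± 0.06 and BAZ2B-AS1 at -0.14 ± 0.08. BAZ2B, a bromodomain gene, had 20.6, 24.0 and 22.4 CPM in shNC and 54.1, 56.7 and 21.6 CPM in shATGL (log2 0.98 ± 0.32), so the partner differed more than the antisense RNA, in shATGL 1 and 2 alone. Each of these 6 antisense RNAs had an interval that took in 0, and their mean levels lay between 45.9 and 137 CPM.

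TUBA1B-AS1, which ranked between OIP5-AS1 and TMPO-AS1 in mean CPM, had a wide spread. Its levels were 174, 30.9 and 75.2 CPM in shNC and 30.5, 43.8 and 91.4 CPM in shATGL, a 5.69-fold range over the 6 libraries, with shNC 1 highest and shNC 2 close to the lowest. TUBA1B, which encodes an alpha tubulin, had 2030, 2154 and 2333 CPM in shNC and 1791, 1832 and 2176 CPM in shATGL. Of the 1632 exonic bases of TUBA1B-AS1, 1309 lie across exons of TUBA1B, whose level per kb was 574 CPM against 45.5 CPM for the antisense RNA. Its log2 fold change of -0.76 ± 0.62 turned to 0.06 without shNC 1. Across the 313, the highest library stood a median of 1.66 times above the lowest, and 85 reached at least 2 times. The widest range belonged to LIMD1-AS1, at 3.44, 2.34 and 0.423 CPM in shNC and 3.32, 1.06 and 2.13 CPM in shATGL, named here for its range.

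**Figure D4:**
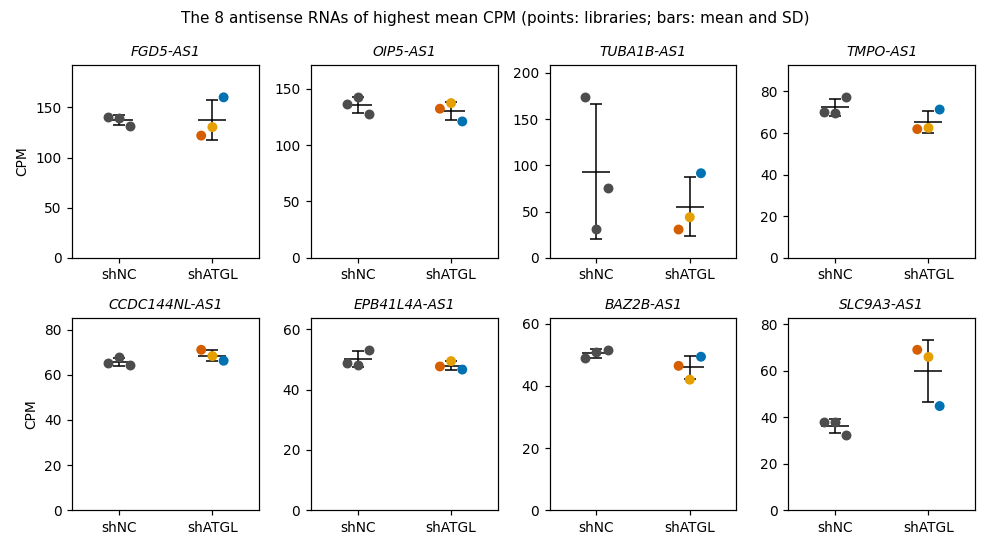
Each panel shows the CPM of one antisense RNA, with dark points for shNC, coloured points for shATGL 1 (red), 2 (yellow) and 3 (blue), and bars for the mean and SD of 3 libraries; axes start at 0. SLC9A3-AS1 is the panel with separated groups upward, and TUBA1B-AS1 spreads from 30.5 to 174 CPM.

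A further list held antisense RNAs known from work on blood cells or cancer, of which 16 were among the 313. ITGB2-AS1, across the gene of the leukocyte integrin beta chain, had 5.98, 6.91 and 5.36 CPM in shNC and 8.04, 7.43 and 7.06 CPM in shATGL, with all shATGL libraries higher (log2 0.31 ± 0.14), while ITGB2 was at log2 0.02 ± 0.06. MCM3AP-AS1 also had separated groups, at 9.50, 8.79 and 7.66 and then 10.9, 10.3 and 9.80 CPM (log2 0.26 ± 0.12). THUMPD3-AS1 had 12.3, 13.5 and 12.7 CPM in shNC and 18.2, 17.8 and 14.2 CPM in shATGL (log2 0.38 ± 0.12). GATA2-AS1, in the gene of a transcription factor of blood stem cells, had 31.5, 32.7 and 31.6 CPM in shNC and 28.6, 30.9 and 31.4 CPM in shATGL (log2 -0.08 ± 0.07), separated by a small step, and GATA2 was at log2 -0.10 ± 0.08. The others were KMT2E-AS1 at log2 -0.29 ± 0.28, PCED1B-AS1 at -0.14 ± 0.13, MAPKAPK5-AS1 at -0.06 ± 0.13, TSPOAP1-AS1 at -0.03 ± 0.10, STX18-AS1 at -0.01 ± 0.22, CD27-AS1 at 0.05 ± 0.21 and PRKCQ-AS1 at 0.07 ± 0.18. The remaining 5 of the list (OIP5-AS1, EPB41L4A-AS1, PSMA3-AS1, GAS6-AS1 and ZEB1-AS1) are given above.

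Beside their partners the antisense RNAs were mostly the lower transcript. Of 300 pairs with both genes in the test, the antisense RNA had the lower level per kb of exon in 225, with a median ratio of 0.219 and medians of 1.11 and 5.24 CPM per kb. EPB41L4A-AS1, BAZ2B-AS1 and SLC9A3-AS1 were among those above their partner. The fold changes had the same sign in 174 of the 300 pairs, both higher in 102 and both lower in 72, and the antisense RNA was higher and the partner lower in 63 and the reverse in 63. Pearson's r between antisense and partner fold change was 0.08 and Spearman's rho 0.16 across the pairs, which share the same 6 libraries. Where exonic bases are shared, reads of the 2 genes cannot be told apart, and their part in the common signs was not tested. Among the 51 pairs whose antisense RNA shared no exonic base with any gene, the sign was the same in 26. Both were higher in 13 and both lower in 13, with r at 0.12 and rho at 0.08. Of the partners of the 29 RNAs on the higher side, 22 (75.9%) had a fold change above 0, against 165 of all 300 partners (55%). At an unadjusted p under 0.05, 8 of them (27.6%) were higher and 0 lower, against 34 (11.3%) higher and 16 lower of all 300 partners and 5.77% higher of all genes. The exons of 25 of the 29 RNAs overlapped those of the partner, so shared reads may count for both genes there. Partner genes were called in 0 of 300 cases with all libraries and in 8 of 300 (2.67%) without shATGL 3, where 0.00522% and 1.6% of all genes were called.

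**Figure D5:**
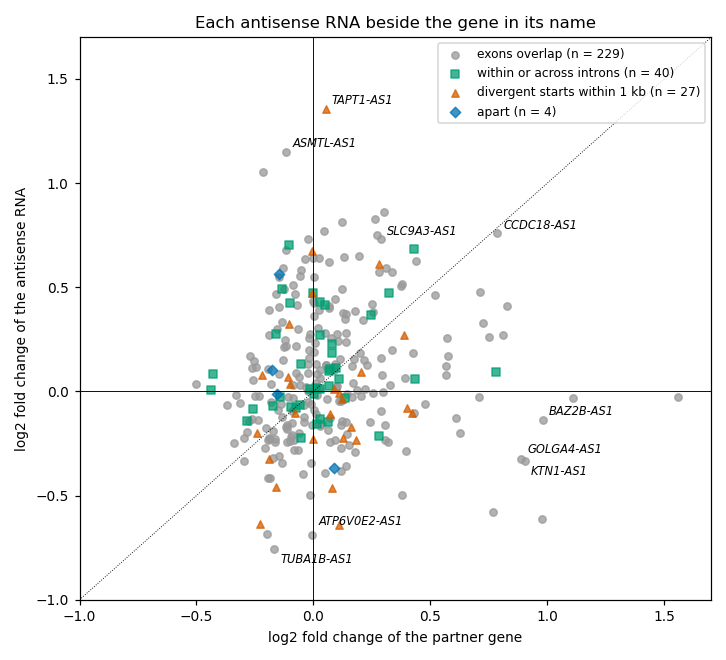
Each point is one pair, with the log2 fold change of the partner on the horizontal and of the antisense RNA on the vertical axis, coloured by position, and the dotted line marks equal change. TAPT1-AS1 and ASMTL-AS1 stand high over partners near 0, CCDC18-AS1 lies beside the dotted line, and BAZ2B-AS1, GOLGA4-AS1 and KTN1-AS1 lie to the right with partners that were higher in shATGL.

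The ratio of antisense RNA to partner gave one value per library and pair. It could be formed in every library for 297 pairs, and all shATGL ratios lay above all shNC ratios in 32 (10.8%) and below in 16 (5.39%). For any single pair the exact two-sided permutation test over 20 relabellings cannot go below p = 0.1. The 8 named pairs were picked for separated ratios, which give that value by construction, so it adds nothing to the separation. The log2 ratio of TAPT1-AS1 to TAPT1 was -4.89, -5.45 and -5.19 in shNC and -3.86, -3.62 and -4.11 in shATGL, a difference of 1.31. That of ASMTL-AS1 to ASMTL was -1.86, -1.83 and -2.42 in shNC and -0.62, -0.64 and -1.17 in shATGL, a difference of 1.23. Among pairs with separated ratios, MCPH1-AS1 (difference 0.79) and GAS6-AS1 (0.73) followed, and in all 4 the partner had a log2 fold change between -0.12 and 0.05.

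In the opposite direction the partner carried most of the difference for GOLGA4-AS1 and KTN1-AS1. KTN1, which encodes the kinesin-binding protein kinectin, had 38.7, 42.1 and 37.3 CPM in shNC and 89.9, 93.5 and 37.5 CPM in shATGL (log2 0.90 ± 0.30), and KTN1-AS1 was at log2 -0.34 ± 0.26, a difference of -1.14 in log2 ratio. GOLGA4, a golgin of the trans-Golgi, had 13.5, 17.0 and 15.0 CPM in shNC and 33.6, 33.9 and 16.6 CPM in shATGL (log2 0.89 ± 0.26), and GOLGA4-AS1 was at -0.33 ± 0.25. Both partners were at about their shNC level in shATGL 3. CPNE8-AS1 (difference in log2 ratio -0.85) and ENTPD1-AS1 (-0.84) also had separated ratios, the latter across the gene of the ectonucleotidase CD39. They completed the 4 such pairs, which were picked by the largest negative difference in fold change and not in log2 ratio. BAZ2B-AS1, ZEB1-AS1 (difference in log2 ratio -1.20) and JMJD1C-AS1 (-1.39, named after its values were seen) had differences beyond those of CPNE8-AS1 and ENTPD1-AS1. Their ratios overlapped between the arms.

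Other RNAs named by their position were counted by the same 30-count rule. Of 134 rows ending in -DT, which are divergent transcripts, 9 (6.72%) were higher and 4 (2.99%) lower at an unadjusted p under 0.05 with a median log2 fold change of 0.00, where 5.77% of all genes were higher and 5.94% lower. The higher share was near that of all genes. Of 14 ending in -AS2, 1 was higher and 0 lower. Factors of nuclear decay and 3′ end processing, which degrade or mature many antisense transcripts, were a list of which 56 were tested. None reached an adjusted p under 0.05 with edgeR, and 4 (7.14%) were higher and 7 (12.5%) lower at an unadjusted p under 0.05, where 5.77% and 5.94% of all genes were. The 4 with the smallest p were CPSF1, a subunit of the cleavage and polyadenylation complex (log2 0.21 ± 0.06), the exosome subunits EXOSC4 (log2 -0.27 ± 0.08) and EXOSC1 (log2 -0.29 ± 0.09), and ZFC3H1, which links the exosome to polyadenylated nuclear RNA (log2 0.85 ± 0.25). ZFC3H1 had 24.1, 25.6 and 19.0 CPM in shNC and 49.9, 48.8 and 25.4 CPM in shATGL, again with shATGL 3 near the shNC level.

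At the limit of the choice, 10 RNAs had exactly 30 counts in their lowest library and 1 had 29. Just inside stood SLCO4A1-AS1 with 30 to 58 counts, ZNF22-AS1 with 30 to 83 counts and TPRG1-AS1 with 30 to 62 counts. Just outside stood SIGLEC10-AS1 with 29 to 60 counts, REPIN1-AS1 with 28 to 37 counts and PANK2-AS1 with 28 to 47 counts. A minimum in every library keeps out RNAs that were near 0 in one arm. With a mean of at least 30 counts in its place 405 RNAs were taken in. Of these 32 were higher and 6 lower at an unadjusted p under 0.05, where 5.77% of all genes were higher and 5.94% lower.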

How the data were processed

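RNA from MV4-11 cells was sequenced in 3 shNC and 3 shATGL libraries. The authors deposited raw counts per human Ensembl gene. The submitters' processing notes name the mouse build mm10, although the gene identifiers are human. The aligner, counting tool, annotation and strand setting are not given in the sources used here. Identifiers were matched to symbols (61757 of 61806), and positions were taken from GENCODE 29. The partner of an antisense RNA is the gene whose symbol stands before -AS1.

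Counts were tested with edgeR 4.0.16 (R 4.3.3): filterByExpr with a minimum count of 10 and a total of 15, trimmed mean of M values (TMM) scaling, the quasi-likelihood test, and Benjamini-Hochberg adjustment over 19149 genes. All 313 antisense RNAs passed the filter. Genes were called at an adjusted p under 0.05 and at least a 2-fold change. The procedure was tested on simulated data. A log2 ratio of one pair was tested by exact permutation. DESeq2 1.42.0, limma 3.58.1 (voom), other scalings and filters, a replicate block, length and GC trends, other limits for the choice and leaving out each library were alternatives. Nothing in the labels says that the libraries came from separate cultures, so p-values measure the spread between these libraries, which may be technical.

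The antisense RNAs and the gene lists were chosen with earlier results of these data known. Named were PNPLA2, any RNA with an adjusted p under 0.05, the 8 of highest mean CPM, the 8 highest and 8 lowest fold changes with separated groups, among pairs whose ratios did not overlap between the arms, the 4 with the largest difference in fold change in each direction, a fixed list of RNAs known from blood or cancer, 3 RNAs on each side of the 30-count limit, the partners of these, and the 4 decay factors of smallest p.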

Additional observations from a re-analysis of the deposited data

How the results depend on the processing

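The count of antisense RNAs called was 0 under every alternative except DESeq2 (2), limma voom with quality weights (2) and leaving out one library (0 to 3, the 3 without shATGL 3). All genes called numbered 3 with upper-quartile scaling, 24 with DESeq2, 266 with voom and 0 to 319 when one library was left out, the 319 without shATGL 3. Partner genes called numbered 5 with voom and 0 to 8 when one library was left out. At an unadjusted p under 0.05, a count added after the data were seen, 55 antisense RNAs were higher (17.6%, against 15.5% of all genes) and 19 lower (6.07%, against 15.1%) with voom, 8 were lower with length and GC trends taken out, and leaving out one library gave 20 to 52 higher (52 without shATGL 3) and 1 to 12 lower (1 without shATGL 2, 2 without shATGL 1, 8 without shNC 2 and 12 without shATGL 3). Without shATGL 3 these were 16.6% and 3.83% of the antisense RNAs, against 14.7% and 14.1% of all genes, so the counts grew with those of the whole table. The median log2 fold change of the antisense RNAs was 0.010 with length and GC trends taken out, 0.034 to 0.078 when one library was left out, 0.053 with a mean of 30 counts and with 10 counts in each library, and -0.012 in RNAs that share no exonic base. That of the partners was 0.0044 with upper-quartile scaling, -0.042 with length and GC trends taken out and 0.014 to 0.050 when one library was left out. The median difference between antisense RNA and partner was 0.054 with length and GC trends taken out. RNAs above 0 numbered 257, 101 and 25 with 10 counts, with 100 counts and without shared exonic bases, as the sets themselves grew or shrank (455, 179 and 53 RNAs, the last of these with a partner in the annotation).

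PNPLA2 ranged from -0.024 to 0.033 when one library was left out. Of 966 log2 fold changes of 69 named genes, 879 kept direction and side of the threshold, 45 passed an adjusted p under 0.05 and 42 changed sign, in 19 genes. FGD5-AS1 was at -0.0011 with DESeq2's size factors, -0.0032 with DESeq2, -0.0081 with upper-quartile scaling, -0.12 with voom and -0.018 with length and GC trends taken out. That last setting gave -0.054 for CCDC144NL-AS1, -0.055 for CPNE8, -0.082 for TAPT1, -0.040 for EXOC3 and -0.023 for ZNF674. With voom, MAPKAPK5-AS1 was at 0.012 and STX18-AS1 at 0.13. When one library was left out, the range crossed 0 for CD27-AS1 (-0.090 to 0.18), FGD5-AS1 (-0.12 to 0.080), MAPKAPK5-AS1 (-0.12 to 0.072), OIP5-AS1 (-0.10 to 0.00036), PRKCQ-AS1 (-0.077 to 0.19), SLCO4A1-AS1 (-0.11 to 0.39), STX18-AS1 (-0.16 to 0.16), TSPOAP1-AS1 (-0.096 to 0.027), TUBA1B-AS1 (-1.33 to 0.057), ZNF22-AS1 (-0.27 to 0.23), TAPT1 (-0.013 to 0.10), ATP6V0E2 (-0.052 to 0.049), ST20 (-0.17 to 0.43), GAS6 (-0.036 to 0.0012), UCKL1 (-0.0077 to 0.095) and ZNF674 (-0.19 to 0.30). The causes were not tested.

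With the replicate number as a block (replicate block), 0 genes were called in all, FGD5-AS1 was at -0.0081 and ZNF22-AS1 at 0.027. At an unadjusted p under 0.05 in that fit, 37 antisense RNAs were higher (11.8%, against 7.92% of all genes) and 8 lower (2.56%, against 9.41%). Deviations of same-numbered libraries from their group means correlated at 0.049, 0.13 and 0.22. Every library except shATGL 1 correlated best with its own number, and shATGL 1 did so with shNC 2 (0.094). These correlations were low, and the main fit did not take the numbers to pair the libraries, though a pairing is not excluded. Genes at an unadjusted p under 0.05 numbered 3317 with the block and 2243 in the main fit. Depth limited the RNAs of low abundance: 46 of the 313 had a mean under 1 CPM.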
